A study of Mus musculus with 7 samples.

Results

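The genes described here belong to families that handle or answer calcium signals, up to the transcription factors of the NFAT family. They comprise 36 genes chosen by name as calcium stores, channels, pumps, calmodulin kinases, calcineurin and NFAT factors, and all 36 were found among the 24341 genes of the expression table. The sequenced RNA came from splenic B-cell precursors (BCP) of Eμ-Ret mice, sorted by FACS, with 3 leukemic samples taken from moribund older mice and 4 preleukemic samples from young, healthy mice. Both groups were Emu-Ret hemizygote on a BALB/c background, so every sample carried the same transgene, a Ret fusion driven in B cells by the immunoglobulin heavy chain enhancer. No treatment was recorded and there were no samples without the transgene, and because the leukemic mice were older, age and disease cannot be told apart. The question of the comparison was which pathways change between preleukemia and leukemia.

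Antigen and pre-B-cell receptors activate phospholipase C, which makes inositol trisphosphate (IP3), and IP3 opens channels through which calcium leaves the endoplasmic reticulum. The STIM proteins sense the emptied store and open the ORAI channels of the plasma membrane, a process called store-operated calcium entry, while SERCA pumps refill the store and PMCA pumps push calcium out of the cell. Calcium bound to calmodulin activates the CaM kinases and the phosphatase calcineurin, and calcineurin dephosphorylates NFAT factors so that they enter the nucleus. In B cells this pathway is known for its part in receptor signaling, tolerance and survival.

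More of these genes were lower than higher in leukemic samples. Of the 36 genes, 33 had FPKM values (fragments per kilobase of transcript per M fragments) that summed to at least 10 over the 7 samples and were tested, and Camk1, Camk4 and Nfatc2 were not. On the log2(FPKM + 1) scale, 6 of the 33 were lower in leukemic samples, 1 was higher and 26 did not pass the test (limma with Benjamini-Hochberg adjustment over all 10541 genes tested, called where the adjusted p was under 0.05). The genes that fell were Plcb2, Itpkb, Orai2, Atp2a3, Camk2d and Nfat5, and the gene that rose was Atp2b4. The 7 calls are 21.2% of the 33 genes, against 14.7% of all genes tested. Falls made up 18.2% of the 33, where 6.26% of all genes fell, and the single rise made up 3.03%, where 8.47% of all genes rose. The log2 fold change was negative in 28 of the 33 genes (84.8%), compared with 52.1% of all genes, and its median was -0.23 against -0.02 for all genes. The 36 genes were chosen with earlier results of these data known, so these shares are descriptions and not an independent test. In the lists of other pathway genes given below, the medians were 0.06 and 0.01.

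These counts rested on few samples. Without preleukemic replicate 1, 2, 3 or 4 the members lower numbered 4, 2, 1 and 0 and the members higher 1, 1, 0 and 0. In these fits limma called 9.01, 4.41, 2.63 and 1.02% of all genes. In the fit without replicate 4, the unadjusted limma p was under 0.05 in 11 of the 33 members and 2596 of 10373 genes. Each sample was also scaled to an equal FPKM total without the genes of red cell, macrophage, neutrophil and platelet lists. With this scaling 12 members were lower and 1 higher. Of all 10541 genes, 1745 were lower and 724 higher, against 660 and 893 without it. The median of all genes moved from -0.02 to -0.13, and 29.3% of all calls were rises in place of 57.5%. With quantile normalization that share was 45.4%, and 8 members and 907 of all 10541 genes were lower.

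**Figure D1:**
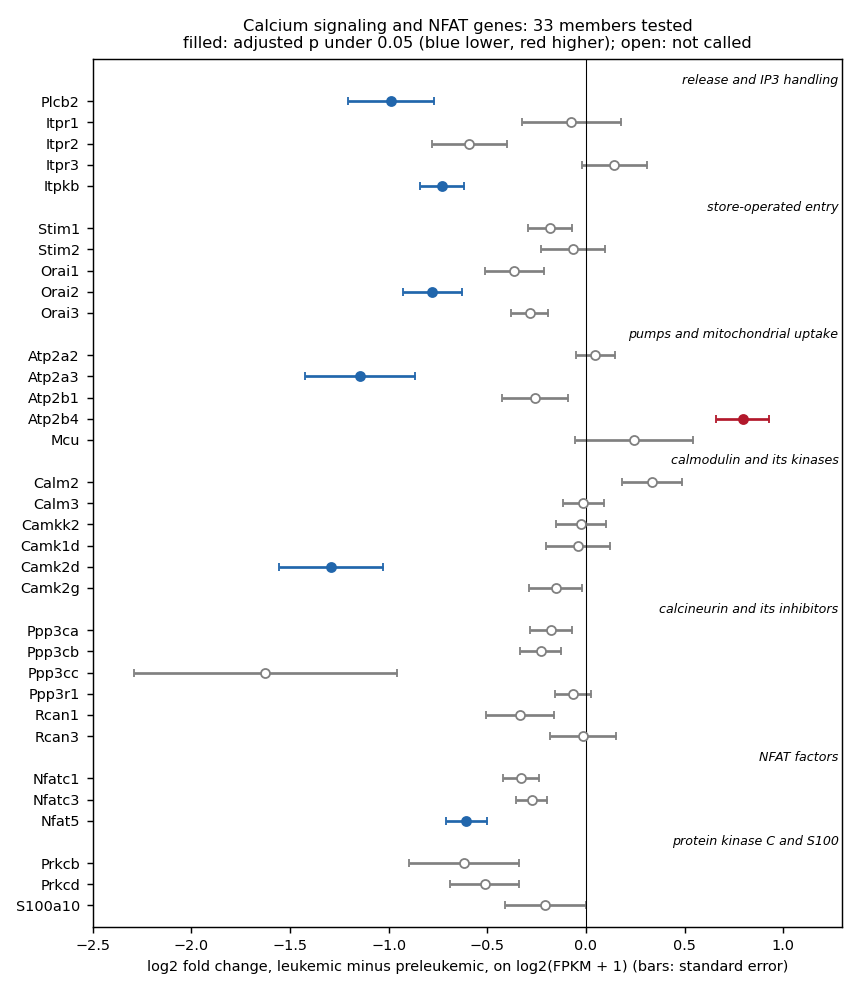
The log2 fold change (leukemic minus preleukemic, on log2(FPKM + 1)) of the 33 genes tested, grouped by role, with bars for the standard error and filled points for called genes. Of the 33 points, 28 lie left of 0, the 6 filled blue points lie between -1.29 and -0.61, and the filled red point, Atp2b4, lies at 0.79.

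The leukemic and preleukemic values did not overlap in 12 of the 33 genes (36.4%, against 32.0% of all genes tested). In 10 of them every leukemic value lay below every preleukemic value (30.3%, against 17.1% of all genes). In the other 2, Atp2b4 and Calm2, every leukemic value lay above (6.06%, against 14.9% of all genes). The leukemic samples were also the more scattered. The median SD over samples on the log2 scale was 0.26 in the leukemic and 0.13 in the preleukemic group for the 33 genes, and 0.21 and 0.13 for all genes.

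**Figure D2:**
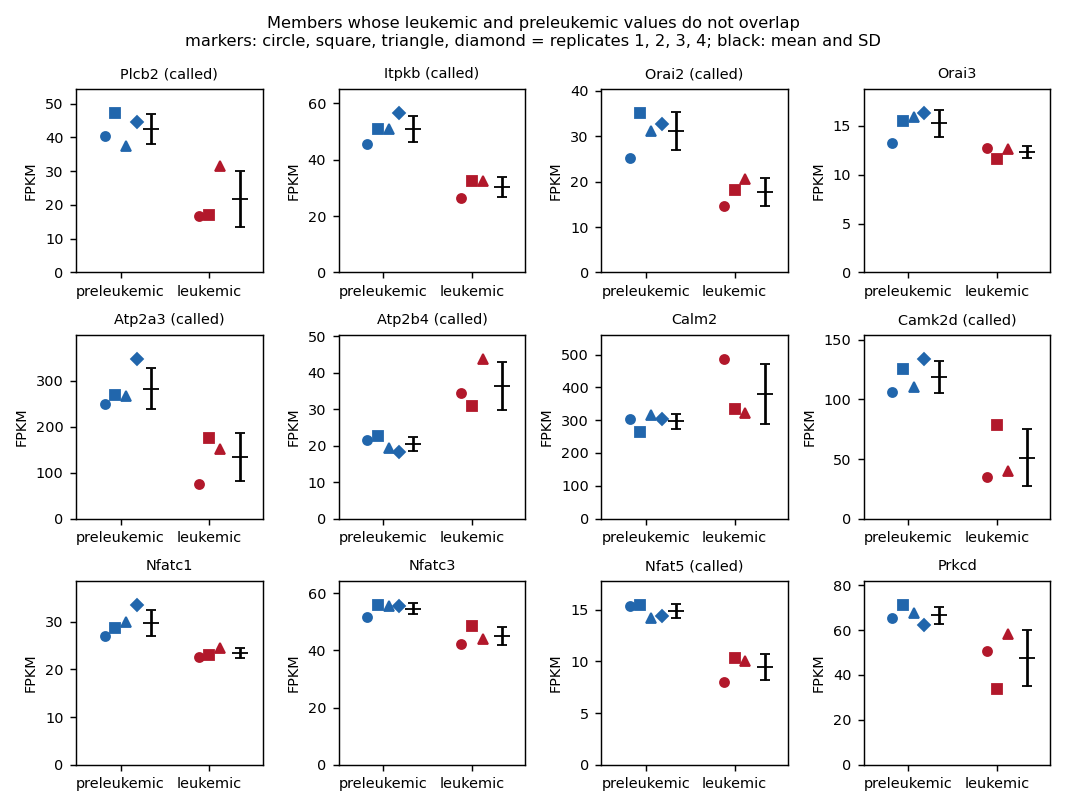
FPKM in each sample for the 12 genes whose groups did not overlap, with 4 preleukemic samples in blue, 3 leukemic samples in red, and the mean and SD in black, each vertical axis starting at 0. Atp2b4 and Calm2 are the 2 panels with leukemic samples on top, and leukemic replicate 1 is the lowest point for Plcb2, Itpkb, Orai2, Atp2a3, Camk2d, Nfatc1, Nfatc3 and Nfat5.

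The promoter windows of the 4 called genes with the largest falls and of Atp2b4 are shown because these genes moved most. They run 5′ to 3′ on the strand of the gene, from 250 bases before to 50 after the RefSeq start in GRCm38.p6, and 27 of the 36 genes had such a window among those read here. Capitals mark GGAAA or its complement TTTCC, the core letters of NFAT sites, which also contain the GGAA of ETS sites, and GGGCGG or CCGCCC, the GC box of SP factors. The Camk2d window lies at chr3:126596701-126597000 on the plus strand.
Camk2d: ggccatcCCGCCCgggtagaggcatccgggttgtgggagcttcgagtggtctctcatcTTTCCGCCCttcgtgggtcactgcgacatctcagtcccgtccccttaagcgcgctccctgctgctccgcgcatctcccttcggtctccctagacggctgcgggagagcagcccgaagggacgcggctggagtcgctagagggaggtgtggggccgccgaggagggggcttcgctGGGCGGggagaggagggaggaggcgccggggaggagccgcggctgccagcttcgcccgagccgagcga
The Atp2a3 window lies at chr11:72960919-72961218 on the plus strand.
Atp2a3: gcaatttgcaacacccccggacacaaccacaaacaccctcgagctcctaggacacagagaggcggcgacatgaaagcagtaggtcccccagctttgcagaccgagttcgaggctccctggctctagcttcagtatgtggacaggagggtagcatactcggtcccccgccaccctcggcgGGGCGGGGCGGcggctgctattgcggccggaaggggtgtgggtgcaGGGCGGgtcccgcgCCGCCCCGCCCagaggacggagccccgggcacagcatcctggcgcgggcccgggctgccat
The Plcb2 window lies at chr2:118728389-118728688 on the minus strand.
Plcb2: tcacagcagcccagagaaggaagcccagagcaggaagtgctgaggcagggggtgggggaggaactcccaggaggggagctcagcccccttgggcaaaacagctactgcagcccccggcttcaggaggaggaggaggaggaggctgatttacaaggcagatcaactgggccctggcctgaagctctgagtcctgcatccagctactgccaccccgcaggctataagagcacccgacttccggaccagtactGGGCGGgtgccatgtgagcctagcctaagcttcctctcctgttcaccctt
The Orai2 window lies at chr5:136170607-136170906 on the minus strand.
Orai2: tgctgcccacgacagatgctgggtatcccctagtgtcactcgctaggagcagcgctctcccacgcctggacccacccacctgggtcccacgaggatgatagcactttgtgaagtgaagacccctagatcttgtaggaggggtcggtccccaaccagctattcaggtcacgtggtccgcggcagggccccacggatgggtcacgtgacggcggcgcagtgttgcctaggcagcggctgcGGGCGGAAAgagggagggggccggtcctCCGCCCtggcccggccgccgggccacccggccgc
The Atp2b4 window lies at chr1:133753698-133753997 on the minus strand.
Atp2b4: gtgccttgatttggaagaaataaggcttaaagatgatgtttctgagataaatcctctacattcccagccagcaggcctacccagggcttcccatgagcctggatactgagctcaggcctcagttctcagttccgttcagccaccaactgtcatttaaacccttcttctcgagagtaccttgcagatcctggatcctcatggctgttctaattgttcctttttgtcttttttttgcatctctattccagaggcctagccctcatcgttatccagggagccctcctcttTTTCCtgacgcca

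In these windows GGAAA was found 1 time in Camk2d, Orai2 and Atp2b4 and 0 times in Atp2a3 and Plcb2. The GC box was found 3 times in Camk2d, 5 in Atp2a3, 1 in Plcb2, 2 in Orai2 and 0 in Atp2b4. The other called genes, Itpkb and Nfat5, held GGAAA 3 and 2 times and the GC box 0 and 2 times, in windows whose starts differ from the gene ends in the deposited table. GGAAA stood in 51.5% of the 33 windows of the calcium and NFAT genes and in 61.3% of all 32851 windows of the same length. The 33 windows belong to 27 genes, and the 32851 windows were not limited to the genes tested for expression. The GC box stood in 78.8% and 35.7%, and the median GC content was 68.3% and 52.7%. Among the 6 genes that fell, the GC content of the window ran from 39.3% in Itpkb to 72.0% in Nfat5, and Atp2b4, at 47.7%, lay inside this range. A match of letters is not a measured binding site.

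Among the genes of IP3 production and calcium release, 2 of 5 fell, against 6.26% of all genes tested. The 3 IP3 receptors did not pass the test. The phospholipase C genes Plcg1 and Plcg2, which are not members, were not called (limma adjusted p = 0.057 and 0.70). Plcb2, a phospholipase C coupled to G proteins (chr2:118707517-118728438), was at 16.8, 17.0 and 31.5 FPKM in the leukemic replicates (1 to 3) and at 40.5, 47.3, 37.5 and 44.6 FPKM in the preleukemic replicates (1 to 4). Leukemic replicate 3 came closest to the preleukemic samples, and the groups did not overlap. The mean was 21.8 ± 8.40 FPKM (SD, n = 3) in leukemic and 42.5 ± 4.33 FPKM (SD, n = 4) in preleukemic samples. This amounts to a log2 fold change of -0.99 ± 0.22 (SE, limma adjusted p = 0.028). This call was the least stable of the 7, since it passed in 10 of 18 alternative analyses and was lost without any 1 of leukemic replicates 1 and 2 and of the 4 preleukemic replicates (limma adjusted p between 0.058 and 0.087).

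Itpkb, the kinase that turns IP3 into inositol tetrakisphosphate and so ends its action on the receptors (chr1:180326969-180423659), had the highest mean FPKM of this role. Its levels were 26.3, 32.5 and 32.4 FPKM in the leukemic replicates and 45.5, 51.0, 50.7 and 56.6 FPKM in the preleukemic replicates. Both groups were tight and well apart. Its log2 fold change was -0.73 ± 0.11 (SE, limma adjusted p = 0.013), and it passed in 16 of 18 alternatives, with a limma adjusted p of 0.0504, outside the threshold, without preleukemic replicate 4.

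The IP3 receptors are the release channels themselves. Itpr3 (chr17:27057304-27122223) averaged 41.3 ± 8.37 FPKM (SD, n = 3) in leukemic and 37.0 ± 5.12 FPKM (SD, n = 4) in preleukemic samples (limma adjusted p = 0.56). Itpr2 averaged 15.5 ± 4.05 and 23.6 ± 4.10 FPKM (limma adjusted p = 0.076). Itpr1 was nearly equal on average, at 21.2 ± 8.47 and 21.2 ± 2.25 FPKM (limma adjusted p = 0.86), but ran from 12.6 to 29.6 FPKM among the leukemic samples. The sum of the 3 receptors was 77.9 ± 17.7 FPKM in leukemic and 81.8 ± 7.62 FPKM in preleukemic samples, and the share of Itpr3 in it was 53.4 ± 6.04% and 45.1 ± 3.27%. These shares and those given for other families are descriptions without a test.

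Of the 5 genes of store-operated entry, Orai2 alone passed the test, as lower, against 6.26% of all genes tested. The log2 fold change was negative in all 5 and in 52.1% of all genes. Orai2, a channel subunit (chr5:136147461-136170656), was at 14.6, 18.1 and 20.6 FPKM in leukemic samples and at 25.3, 35.2, 31.3 and 32.8 FPKM in preleukemic samples. All leukemic values were below the lowest preleukemic value, that of replicate 1. For Orai2 the log2 fold change was -0.78 ± 0.15 (SE, limma adjusted p = 0.020), and the call was lost without preleukemic replicate 2, 3 or 4 (limma adjusted p between 0.057 and 0.071).

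Orai3 (chr7:127769815-127775150) had 12.7, 11.7 and 12.6 FPKM in leukemic and 13.3, 15.5, 16.0 and 16.4 FPKM in preleukemic samples. Its groups did not overlap, with a log2 fold change of -0.29 ± 0.09 that did not pass (SE, limma adjusted p = 0.082). Orai1, the pore subunit of the classical channel (chr5:123015074-123030452), had 8.07, 8.02 and 11.8 FPKM against 12.2, 13.8, 10.7 and 11.7 FPKM. Leukemic replicate 3 overlapped the preleukemic range, and the log2 fold change was -0.36 ± 0.15 (SE, limma adjusted p = 0.14), which passed without that replicate (-0.53, limma adjusted p = 0.039). The sum of the 3 ORAI genes was 39.4 ± 5.06 FPKM in leukemic and 58.5 ± 5.82 FPKM in preleukemic samples, and the share of Orai2 in it went from 53.1 ± 2.21% in preleukemic to 45.0 ± 3.45% in leukemic samples.

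The store sensors overlapped between the groups. Stim1 (chr7:102267824-102436855), the gene with the highest mean FPKM of this role, had 37.6, 28.9 and 32.0 FPKM in leukemic and 37.6, 33.0, 39.7 and 38.7 FPKM in preleukemic samples (log2 fold change -0.18 ± 0.11 SE, limma adjusted p = 0.28). Stim2 (chr5:53998523-54121057) had 12.1, 7.44 and 8.53 FPKM against 10.1, 8.38, 10.4 and 9.80 FPKM (log2 fold change -0.06 ± 0.16 SE, limma adjusted p = 0.80). Leukemic replicate 1 was the highest of all 7 samples for Stim2, and without leukemic replicate 2 the difference changed sign to 0.07. Stim1 made up 78.0 ± 2.07% of the 2 STIM genes in leukemic and 79.4 ± 0.473% in preleukemic samples.

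The calcium pumps held the largest fall in FPKM and the only rise that passed the test. Of the 5 genes of pumps and mitochondrial uptake, 1 fell and 1 rose, where 6.26% of all genes fell and 8.47% rose. Atp2a3, which encodes SERCA3, the pump of the endoplasmic reticulum found in blood cells (chr11:72961169-72993043), was at 75.8, 175 and 152 FPKM in leukemic samples and at 248, 269, 267 and 347 FPKM in preleukemic samples. Leukemic replicate 1 was far below the other 2, and all 3 were below every preleukemic sample. The log2 fold change was -1.14 ± 0.28 (SE, limma adjusted p = 0.037), and the call was lost without any 1 of the preleukemic replicates (limma adjusted p between 0.065 and 0.11) and with no filter on low values (0.057).

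Atp2b4, which encodes the plasma membrane pump PMCA4 (chr1:133702674-133753747), had 34.6, 31.0 and 43.8 FPKM in leukemic and 21.5, 22.8, 19.3 and 18.3 FPKM in preleukemic samples. All leukemic values were above the highest preleukemic value, that of replicate 2. For Atp2b4 the log2 fold change was 0.79 ± 0.13 (SE, limma adjusted p = 0.016), and the call was lost without preleukemic replicate 3 (0.055) or 4 (0.062). PMCA4 is also known as the main calcium pump of the red cell membrane, and red cell markers were high in the leukemic samples, as given with the marker lists.

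The partners of both pumps did not pass the test. Atp2a2, which encodes the SERCA pump of all tissues, averaged 81.5 ± 5.18 FPKM (SD, n = 3) in leukemic and 78.9 ± 7.78 FPKM (SD, n = 4) in preleukemic samples (limma adjusted p = 0.75). Atp2b1, the other PMCA gene, averaged 11.0 ± 2.97 and 13.1 ± 0.889 FPKM (limma adjusted p = 0.30). The makeup of both pairs differed between samples. Atp2a3 made up 47.0, 67.7 and 66.7% of the FPKM of the SERCA pair in leukemic samples and between 75.1 and 83.2% in preleukemic samples. Atp2b4 made up 75.9, 68.9 and 84.5% of the PMCA pair in leukemic samples and between 57.3 and 65.7% in preleukemic samples. Mcu, the pore of the mitochondrial calcium uniporter, had 8.21 ± 4.51 and 6.31 ± 1.27 FPKM (limma adjusted p = 0.59), with leukemic replicate 1 the highest of the 7 samples at 13.4 FPKM.

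**Figure D3:**
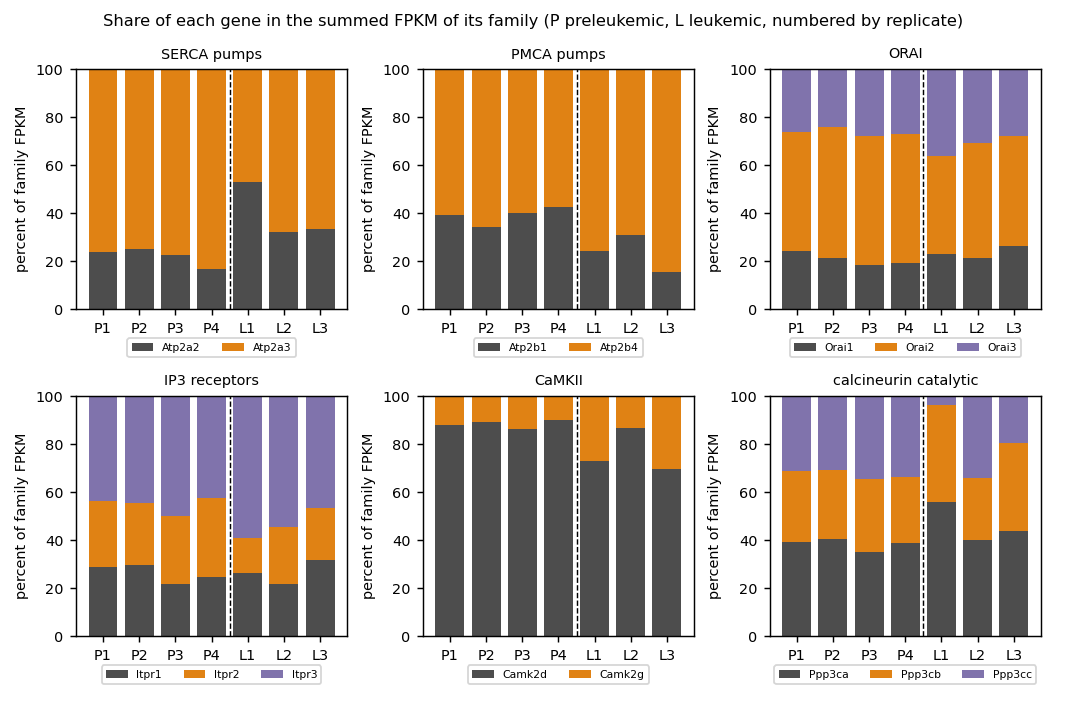
Share of each gene (percent, vertical axis) in the summed FPKM of its family, one bar per sample, with preleukemic samples P1 to P4 left and leukemic samples L1 to L3 right of the dashed line. The share of Atp2a3 is lowest in L1 at 47.0%, that of Camk2d lies between 69.7% and 86.6% in leukemic samples, and that of Ppp3cc is 3.61% in L1.

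Among the 6 calmodulin genes and CaM kinases tested, Camk2d fell, against 6.26% of all genes tested, and the other 5 did not pass. Camk2d, the delta form of CaM kinase II (chr3:126596951-126846326), was at 34.5, 78.5 and 39.9 FPKM in leukemic samples and at 106, 126, 110.1 and 134 FPKM in preleukemic samples. Leukemic replicate 2 came closest to the preleukemic samples, and the groups did not overlap. The log2 fold change was -1.29 ± 0.26 (SE, limma adjusted p = 0.023), the largest in size of the 7 called genes, and the call was lost without leukemic replicate 3 (0.053), without preleukemic replicate 2 (0.065), 3 (0.065) or 4 (0.078), and without both replicates 1 (0.064).

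Camk2g, the gamma form, averaged 14.1 ± 2.83 FPKM (SD, n = 3) in leukemic and 15.6 ± 1.36 FPKM (SD, n = 4) in preleukemic samples (limma adjusted p = 0.45). Camk2d supplied 73.0, 86.6 and 69.7% of the FPKM of the pair in leukemic samples and between 86.2 and 89.9% in preleukemic samples. Leukemic replicate 2 lay within the preleukemic range of this share and the other 2 lay below it.

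Calm2, one of 3 genes for the same calmodulin protein (chr17:87433401-87446935), had the highest mean FPKM of all 36 genes. It had 487, 333 and 322 FPKM in leukemic and 302, 264, 316 and 304 FPKM in preleukemic samples. The groups did not overlap, leukemic replicate 1 was far above the rest, and the log2 fold change of 0.34 ± 0.15 did not pass (SE, limma adjusted p = 0.17). Calm2 and Itpr3 lie on chromosome 17, where the median log2 fold change of the 592 genes tested was 0.35, with medians of 0.352, 0.331 and 0.381 in leukemic replicates 1 to 3, and the part of the chromosome in these values was not tested. Calm3 averaged 177 ± 21.5 and 178 ± 12.6 FPKM, and the log2 fold changes of Calm3, Camk1d and Camkk2, the kinase that activates other CaM kinases, lay between -0.04 and -0.01 (limma adjusted p between 0.88 and 0.94).

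Camk1 and Camk4 were below the filter. Camk1 had 1.11, 2.29 and 0.90 FPKM in leukemic and 0.22, 0.33, 0.12 and 0.18 FPKM in preleukemic samples. It was higher in every leukemic sample, and with no filter on low values it was called, so that 2 members were higher. Exons of Camk1 overlap the protein-coding gene Ogg1 on the other strand, and the part of Ogg1 in these low values was not tested. Camk4, the CaM kinase of the nucleus, averaged 0.0559 ± 0.0231 and 0.0830 ± 0.0388 FPKM. At the depths read from the table a transcript of 1500 bases at 0.1 FPKM holds 2.01 to 2.42 fragments, so differences in Camk4 were not detectable at this depth.

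With all samples and no further scaling, no gene of calcineurin or its inhibitors passed the test, where 14.7% of all genes tested were called. Ppp3ca, the alpha form of the catalytic subunit (chr3:136670066-136937727), had 65.7, 58.2 and 50.4 FPKM in leukemic and 61.2, 68.7, 62.7 and 69.9 FPKM in preleukemic samples. The groups overlapped, and the log2 fold change was -0.18 (limma adjusted p = 0.27). Ppp3cb, the beta form, averaged 42.5 ± 4.89 and 49.9 ± 3.81 FPKM (limma adjusted p = 0.16), and Ppp3r1, the regulatory subunit that binds calcium, averaged 50.6 ± 5.41 and 52.8 ± 1.67 FPKM (limma adjusted p = 0.63). Ppp3r1 shares exon sequence with Wdr92 on the same strand, so reads of the 2 genes may not be told apart.

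Ppp3cc, the gamma form (chr14:70217865-70289497), had the widest spread of the 33 genes. It was at 4.24, 49.4 and 22.4 FPKM in leukemic samples and at 48.7, 52.4, 61.5 and 60.7 FPKM in preleukemic samples. Leukemic replicate 1 was almost without it, replicate 3 was below and replicate 2 just inside the preleukemic range. The SD on the log2 scale was 1.66 in leukemic and 0.161 in preleukemic samples. The log2 fold change of -1.62 ± 0.67 did not pass (SE, limma adjusted p = 0.13). Ppp3cc was called lower without leukemic replicate 2 and in none of the other alternatives. Its share of the 3 catalytic genes was 3.61, 33.9 and 19.5% in leukemic samples and between 30.9 and 34.3% in preleukemic samples.

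The low value in leukemic replicate 1 was not shared by the neighbours of Ppp3cc to the same degree. In that sample Ppp3cc stood at -3.43 relative to the preleukemic mean on the log2 scale, while of the 3 genes on either side, chosen after the values were seen, the lowest was Pdlim2 at -0.67 and the next Slc39a14 at -0.49. Over the 352 genes tested on chromosome 14, the median deviation was -0.07, -0.11 and 0.13 in leukemic replicates 1 to 3. It was -0.05, -0.04, 0.13 and -0.03 in preleukemic replicates 1 to 4. Antisense RNA overlaps Ppp3cc on the other strand. The libraries were stranded, but whether the FPKM values were counted by strand was not checked. The part of the antisense RNA and of the chromosome in the low value of Ppp3cc was not tested.

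The calcineurin inhibitors were low. Rcan1, itself a target gene of NFAT, averaged 7.29 ± 2.13 FPKM in leukemic and 9.20 ± 0.524 FPKM in preleukemic samples (limma adjusted p = 0.21). Rcan3 averaged 6.76 ± 1.38 and 6.83 ± 1.27 FPKM (limma adjusted p = 0.96).

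All 3 NFAT genes tested were lower in every leukemic sample than in any preleukemic sample, a pattern shared by 17.1% of all genes tested. Among the 3, 1 passed the test as lower, against 6.26% of all genes. Nfat5, the family member that answers to osmotic stress and does not need calcineurin (chr8:107256164-107558595), was at 8.02, 10.3 and 10.1 FPKM in leukemic samples and at 15.4, 15.5, 14.2 and 14.4 FPKM in preleukemic samples. The groups were well apart. The log2 fold change was -0.61 ± 0.10 (SE, limma adjusted p = 0.016), and the call was lost without preleukemic replicate 3 (0.053) or 4 (0.060).

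Nfatc1 and Nfatc3, which calcineurin does activate, differed by less. Nfatc1 had 22.7, 23.0 and 24.6 FPKM in leukemic and 27.0, 28.7, 29.9 and 33.5 FPKM in preleukemic samples, with a log2 fold change of -0.33 ± 0.09 (SE, limma adjusted p = 0.052). Nfatc3 (chr8:106059603-106130537), the most abundant NFAT gene, had 42.3, 48.6 and 44.0 FPKM against 51.5, 55.8, 55.5 and 55.4 FPKM, a log2 fold change of -0.28 ± 0.08 (SE, limma adjusted p = 0.055). Both lay just outside the threshold, and Nfatc1 passed in 4 and Nfatc3 in 5 of 18 alternatives, among them quantile normalization (limma adjusted p = 0.039 and 0.027). Exons of Nfatc3 overlap the protein-coding gene Esrp2 on the other strand, and the part of Esrp2 was not tested.

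Nfatc2 was low and did not pass the filter, with 0.571, 1.29 and 1.16 FPKM in leukemic and 0.458, 1.20, 0.901 and 0.586 FPKM in preleukemic samples. The summed FPKM of the 4 NFAT genes was 73.6, 83.2 and 79.9 in leukemic and 94.4, 101, 101 and 104 in preleukemic samples. The order Nfatc3, Nfatc1, Nfat5 and Nfatc2 was the same in all 7 samples, with Nfatc3 at 57.0 ± 1.72% of the sum in leukemic and 54.6 ± 0.874% in preleukemic samples.

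The last 3 genes are protein kinases C, activated by the diacylglycerol that phospholipase C makes, and an S100 protein. Prkcd (chr14:30595354-30626208) had 50.5, 33.7 and 58.2 FPKM in leukemic and 65.3, 71.1, 67.8 and 62.1 FPKM in preleukemic samples. The groups did not overlap, but the leukemic samples were scattered, and the log2 fold change of -0.51 did not pass (limma adjusted p = 0.089). Prkcb, which works in B-cell receptor signaling, averaged 67.4 ± 28.3 FPKM (SD, n = 3) and 97.6 ± 9.66 FPKM (SD, n = 4), with leukemic replicate 1 the lowest at 37.8 FPKM (limma adjusted p = 0.17). S100a10, the S100 protein that pairs with annexin A2 (chr3:93555117-93564645), had 168, 323 and 261 FPKM in leukemic and 271, 299, 286 and 261 FPKM in preleukemic samples. Its log2 fold change of -0.20 ± 0.20 (SE, limma adjusted p = 0.50) became 0.06 without leukemic replicate 1.

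Other genes of the pathway were seldom called. Of 35 tested genes for calcium stores, entry and pumps that are not among the 36, 1 rose and 1 fell, with a median log2 fold change of 0.06. The rise was Slc8b1, the mitochondrial sodium and calcium exchanger (0.74, limma adjusted p = 0.038), and the fall was Inpp5a, a phosphatase that removes IP3 (-0.92, limma adjusted p = 0.015). Of 40 tested genes around calmodulin, calcineurin, NFAT and protein kinase C, 2 rose and 1 fell, with a median of 0.01. The rises were S100a4 (3.07, limma adjusted p = 0.0058) and Anxa2, the partner of S100a10 (2.15, limma adjusted p = 0.015), and the fall was Prkca, a further protein kinase C (-0.95, limma adjusted p = 0.018). The shares called, with 14.7% of all genes as background, were low in both lists. S100a4 and Anxa2 are also abundant in myeloid cells, whose markers were higher in leukemic samples, and the part of these cells in the 2 rises was not tested.

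Of 24 genes known as targets of NFAT, 9 passed the filter on low values. The immediate early gene Nr4a1 rose (1.53, limma adjusted p = 0.016), Tnfaip3, an inhibitor of NF-κB (-1.41, limma adjusted p = 0.0093), and Egr1, an immediate early transcription factor (-1.20, limma adjusted p = 0.028), fell, and 6 were not called. Rcan1 and Nfatc1 belong both to this list and to the 36 genes. The median of the 9 was -0.33, which is the value of Nfatc1, against -0.02 for all genes. Over all genes tested, 8.47% rose and 6.26% fell.

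Markers of other cells moved with the groups. Of the lists for other cell types, 18 of 18 red cell genes, 8 of 12 macrophage genes, 6 of 13 neutrophil genes and 4 of 4 platelet genes tested were higher in leukemic samples, and 0 of 11 T and NK cell genes and 1 of 7 genes of mature B and plasma cells were. Summed FPKM of the red cell list ran from 5756 to 26560 in leukemic samples and from 423 to 447 in preleukemic replicates 2 to 4, with 2844 in preleukemic replicate 1. The B-cell precursor list ran the other way, from 4327 to 6874 in leukemic and from 8355 to 10480 in preleukemic samples, with 4 of 17 genes lower and 1 higher. Ptprc and Spn were present, and Enpep, which encodes the sorting marker BP-1, was at 19.1, 102 and 77.2 FPKM in leukemic and between 134 and 210.2 FPKM in preleukemic samples.

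**Figure D4:**
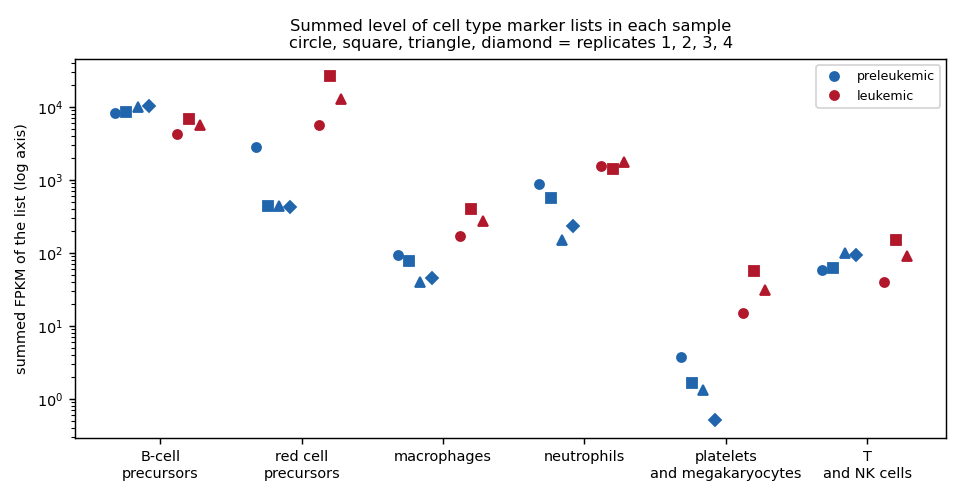
Summed FPKM (log axis) of 6 marker lists in each sample, preleukemic in blue and leukemic in red, with replicates 1 to 4 as circle, square, triangle and diamond. The red cell list reaches 26560 in leukemic replicate 2 and the B-cell precursor list is lowest, at 4327, in leukemic replicate 1.

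Leukemic replicates 1, 2 and 3 were the lowest of the 7 samples in 13, 12 and 4 of the 33 calcium and NFAT genes, and in 27.1, 16.3 and 14.9% of all genes. The B-cell precursor sum was lowest in leukemic replicate 1 and, among the leukemic samples, highest in replicate 2. In bulk samples fewer cells of a type and less RNA per cell cannot be told apart, and the part of other cells in the falls and in the rise of Atp2b4 was not tested. Atp2b4 was at 21.5 FPKM in preleukemic replicate 1, where the red cell sum was 2844, and at 22.8, 19.3 and 18.3 FPKM in replicates 2, 3 and 4, where it was 447, 435 and 423. In leukemic replicates 1, 2 and 3 Atp2b4 was at 34.6, 31.0 and 43.8 FPKM and the red cell sum was 5756, 26560 and 12950. Without leukemic replicate 1 and preleukemic replicate 1 together, 4 of the 33 genes were lower and 1 was higher. Of all 10162 genes tested in that fit, 331 were lower and 663 higher.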

How the data were processed

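Stranded mRNA libraries of 3 leukemic and 4 preleukemic BCP samples were sequenced by the authors. The authors deposited FPKM values for 24341 genes, none below 0.01. The submitters' processing notes name STAR 2.5.0b, Cufflinks 2.2.1, bedtools 2.17.0, Bowtie, DESeq2 and mm10, without their order. FPKM is not a count, so a count model was not used.

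The 10541 genes whose FPKM over 7 samples came to 10 or more were compared on log2(FPKM + 1), without further scaling, with limma 3.58.1 in R 4.3.3 (intensity trend, two-sided, no covariates). P-values were adjusted over all genes by the method of Benjamini and Hochberg. Adding 1 understates changes of low genes. The fit was also run on simulated data that had the same spread in both groups. The real leukemic samples were the more scattered, and the simulation does not cover that difference. The design text gives 4 and 3 mice, but the labels do not tie samples to single mice, so p-values measure the spread between these samples.

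Depth was read from low values of 2243 genes with 1 transcript of over 1500 bases, whose values step in whole fragments (78.2 to 84.3% whole within 0.15). It was 15.5 to 16.1 M fragments in leukemic and 13.4 to 14.7 M in preleukemic samples. At the lowest depth, 10 FPKM over 1500 bases is 201 fragments, a counting error of 7.05%.

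The members and the gene lists were chosen with earlier results of these data known. Values of every sample are given for called genes, the most abundant gene of each role, and all entry and NFAT genes tested, and at most 12 called genes per pathway list are named. Other genes given by sample were chosen after their values were seen. Alternatives were other pseudocounts (0.1 and 5), filters, scalings, weights, a replicate block and leaving out samples. Positions are 1-based on GRCm38, from the deposited table, and promoter windows are from RefSeq. Python 3.11.15, numpy 2.4.6, pandas 2.3.3 and matplotlib 3.10.9 were used.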

Additional observations from a re-analysis of the deposited data

Results flagged for a closer look

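Of the members in the 4 preleukemic samples, 2 had a replicate far from the other 3, as chance does in about 1 in 20 groups. Preleukemic replicate 1 had the highest level of Rcan3, at 8.73 FPKM, with the other 3 between 6.15 and 6.24 FPKM. The same replicate had the lowest level of Nfatc3, at 51.5 FPKM, with the other 3 between 55.4 and 55.8 FPKM. Groups of 3 leukemic samples were not examined in this way.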

How the results depend on the processing

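The counts depended on which samples entered the fit. Leaving out 1 sample, members lower ranged from 0 to 8, members higher from 0 to 1 and all genes called from 106 to 1506 (1553 with all samples), with the lowest counts without preleukemic replicate 4. Without leukemic replicate 1 and preleukemic replicate 1 together, an alternative chosen after seeing the data, 994 genes were called. Scaling to an equal total without other cells' genes gave 12 members lower and 2469 genes called. With no filter, 2 members and 1114 of 16676 genes were higher. An FPKM sum of at least 70 left 951 genes called of 7069 tested. The replicate numbers did not pair the samples (correlations of deviations 0.03, 0.05 and -0.09). With the replicate number as a block, in which preleukemic replicate 4 has no partner and does not enter the difference, 0 members were lower, 0 were higher and limma called 0 genes, with 2429 genes and 11 members at an unadjusted p under 0.05, and the adjusted p of the 7 called genes was between 0.14 and 0.15. No called member changed direction in any of 18 alternatives. S100a10 ranged from -0.41 to 0.0573 and Stim2 from -0.25 to 0.0703 over the samples left out, and S100a10 was at 0.0436 without both replicates 1. Where calls were lost with all genes kept, the cause was not tested. Depth limits what can be compared for Camk4.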
